A study of Mus musculus with 4 samples.

Results

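The Zfp36 family consists of RNA-binding proteins that shorten the life of messenger RNAs, and its members Zfp36, Zfp36l1 and Zfp36l2 were taken by gene symbol. All 3 were among the 35976 symbols counted, and all 3 passed the filter on low counts that left 20389 tested genes. Bulk RNA-seq was made from mouse thymocytes sorted as positive for CD4, CD8a and CD24 and negative for TCRb. Cells with both coreceptors are called double-positive (DP) and precede the mature single-positive T cells. Control mice were Cxxc1 +/+ with Lck-cre and knockout (KO) mice were Cxxc1 F/F with Lck-cre, with 2 libraries per genotype, so both groups carry the Cre transgene. Lck-cre is active in T-lineage cells and starts before the DP stage. The labels give no age, and do not say whether each library is from a different animal. The p-values therefore measure only the spread between these libraries, which may be technical.

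As background, each of these proteins has a pair of CCCH zinc fingers that bind AU-rich elements in the 3′ untranslated region (UTR) of target messenger RNAs. Bound proteins recruit the CCR4-NOT complex, which removes the poly(A) tail, after which decapping enzymes and the exosome degrade the body of the RNA. In the thymus, Zfp36l1 and Zfp36l2 are known for limiting Notch1 and cell-cycle transcripts, and mice whose thymocytes lack both develop T cell leukaemia. Zfp36 encodes tristetraprolin, an early-response gene product that limits cytokine messages such as that of Tnf. Cxxc1 encodes a CpG-binding subunit of the SETD1 complexes that methylate histone H3.

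The transcripts of the family carry the kind of site that its proteins bind. The heptamer TATTTAT, the core AU-rich element in DNA letters, was searched on the sense strand, overlapping matches included, in 1 annotated 3′ UTR per gene (GENCODE M21, GRCm38). That UTR came from the transcript with the longest coding part, or the longest transcript on a tie. Which form these cells express was not tested, and the heptamer counts depend on this choice. Each member had 3 heptamers, in 3′ UTRs of 774 bases for Zfp36, 1835 for Zfp36l1 and 1822 for Zfp36l2. Of the 14366 tested genes with such a UTR, 26.4% had at least 1 heptamer. Among UTRs within 20% of the same length, 1.01%, 3.44% and 3.44% had at least as many as Zfp36, Zfp36l1 and Zfp36l2. In each member 1 heptamer lay within the longer form TTATTTATT, which 6.90% of the tested genes with such a UTR had. Notch1 had 4 heptamers in 1628 bases, and 0.764% of UTRs of similar length had as many. The sites below match the element that family members are known to bind, and whether the proteins act on these RNAs was not tested. They are shown with the heptamer in capitals and up to 11 bases on each side.
Zfp36 (chr7:28376951-28376979, minus strand): tatgacgacttTATTTATtgtattaagat
Zfp36l1 (chr12:80108167-80108195, minus strand): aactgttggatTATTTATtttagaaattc
Zfp36l2 (chr17:84184914-84184942, minus strand): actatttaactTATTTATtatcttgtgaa
Notch1 (chr2:26459162-26459190, minus strand): taaatgctgttTATTTATtgattgcttct
All 4 lie in the longer form. In Zfp36 the 3 heptamers lay within a short stretch, starting 575, 590 and 615 bases after the stop codon. In Zfp36l1 they started at 1150, 1191 and 1405, and in Zfp36l2 at 822, 870 and 1056. A match is a description of the letters and does not show binding.

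**Figure D1:**
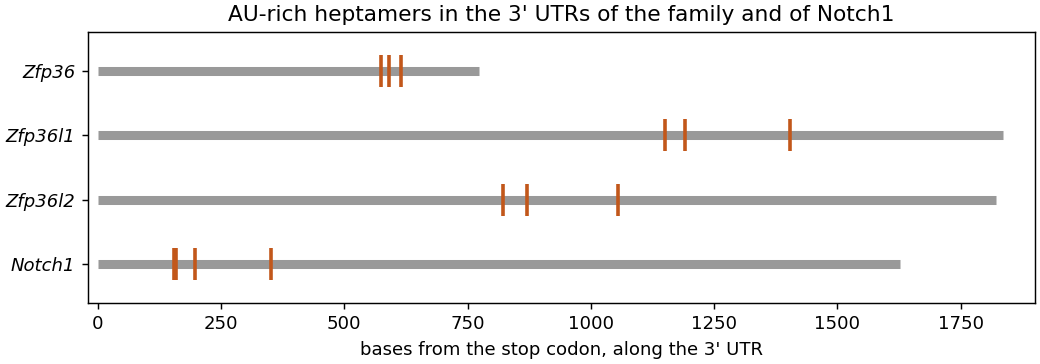
Position of each AU-rich heptamer (orange ticks) along the 3′ UTR (gray bars), in bases from the stop codon, for the 3 family members and Notch1. Zfp36 has its 3 heptamers in the later part of a UTR of 774 bases, and Notch1 has its 4 near the start of a UTR of 1628 bases.

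Control libraries 1 and 2 held 12150508 and 34820446 counts, and KO libraries 1 and 2 held 36243182 and 33544428, so control 1 was the shallowest. Cxxc1 itself, the check of the labels, stood at 111 and 53.5 CPM (counts scaled to the same library size) in controls, against 35.7 and 39.4 CPM in KO libraries. Both KO libraries were below both controls, and the difference did not pass the threshold (adjusted p = 0.199 in edgeR's quasi-likelihood test). Counts were made per gene and not per exon, and the source of the reads left in the KO was not tested. The marker genes of the DP stage, 12 in number, were present in every library, with a summed level of 15756 to 20489 CPM in controls and 6836 to 10494 CPM in KO libraries. Of 11 markers of the earlier double-negative stage, 3 were below 1 CPM in every library. Their summed level was 143 to 182 CPM in controls and 521 to 921 CPM in KO libraries. Summed B cell markers, 6 genes, were at 7.92 to 10.8 CPM in all 4 libraries. The sum of 11 myeloid and dendritic markers was 29.8 to 42.4 CPM in controls and 36.8 to 58.3 CPM in KO libraries. Erythroid markers, 6 genes, summed to 8.66 to 14.02 CPM in controls and 26.2 to 38.03 CPM in the KO, where the 4 globin genes among them were at 0 in both controls. The sum of 6 NK and innate-like markers was 5.51 to 13.0 CPM in controls and 1.92 to 2.70 CPM in the KO, with Klrd1 at 0 in all 4. In bulk samples, fewer cells of a type and less RNA per cell cannot be told apart.

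Zfp36l2 held a larger share of the family's counts in both KO libraries than in either control, while the summed level of the family differed by 0.11 on the log2 scale. Zfp36 and Zfp36l1 were lower in both KO libraries than in both controls, by 2.16-fold and 1.51-fold, and Zfp36l2 was higher in both, by 1.88-fold. None of the 3 passed the threshold in the main test, an adjusted p below 0.05 over all genes in edgeR's quasi-likelihood test, which called 0.451% of tested genes. The unadjusted p was below 0.05 for all 3 members, against 13.9% of tested genes. The genotypes did not overlap in any member, which held for 46.8% of tested genes. Of all tested genes 24% had both KO libraries below both controls, as Zfp36 and Zfp36l1 did, and 22.8% had both above, as Zfp36l2 did.

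Zfp36 (chromosome 7, 28376784 to 28380253, minus strand) had 562 and 2140 reads in the control libraries, and 673 and 1113 reads in the KO libraries. Scaled for depth, controls 1 and 2 had 47.2 and 61.7 CPM, while KO 1 and KO 2 had 19.3 and 31.3 CPM. Both KO libraries lay below the lower control, and KO 1 was the lowest of the 4. The means were 54.5 ± 10.2 and 25.3 ± 8.45 CPM (SD, n = 2 each). The log2 fold change, KO over control, was -1.11 ± 0.32 (standard error), with an adjusted p of 0.184 in edgeR's quasi-likelihood test and rank 748 of 20389 by p. Its unadjusted 95% interval ran from -1.83 to -0.39. DESeq2 called Zfp36 lower, with an adjusted p of 0.0328, where it called 4.79% of tested genes, 2.58% lower and 2.21% higher. The fold change ranged from -1.50 without KO replicate 2 to -0.77 without KO replicate 1.

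Zfp36l1 (chromosome 12, 80107754 to 80113013, minus strand), the member also called TIS11b, had the smallest difference of the 3. It had 1126 and 2997 reads in the controls, or 94.7 and 86.5 CPM. In the KO libraries it had 2004 and 2208 reads, or 57.5 and 62.0 CPM. Replicates lay close together in both genotypes, at 90.6 ± 5.80 and 59.8 ± 3.20 CPM (SD, n = 2 each). The log2 fold change was -0.60 ± 0.22, with an adjusted p of 0.285 in edgeR's quasi-likelihood test, and DESeq2 gave 0.183. No alternative setting called Zfp36l1, over 12 settings with adjusted p-values of 0.0782 to 0.807.

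Zfp36l2 (chromosome 17, 84183931 to 84187947, minus strand), also called TIS11d, was the one member with higher values in the KO. Its reads numbered 1149 and 2846 in the controls and 6584 and 5256 in the KO libraries. These were 96.6 and 82.1 CPM in the controls against 189 and 148 CPM in KO 1 and KO 2. The lower KO library was above the higher control. The means were 89.4 ± 10.2 and 168 ± 29.2 CPM (SD, n = 2 each), and the log2 fold change was 0.91 ± 0.24. The adjusted p was 0.14 in edgeR's quasi-likelihood test, and the rank by p was 527 of 20389. The unadjusted 95% interval ran from 0.38 to 1.45. DESeq2 called Zfp36l2 higher, with an adjusted p of 0.0216, and so did edgeR's likelihood ratio test (adjusted p = 0.032), which called 4.89% of tested genes. In all 3 members KO 1 lay farther from the control mean than KO 2, which held for 61.3% of the tested genes whose genotypes did not overlap.

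**Figure D2:**
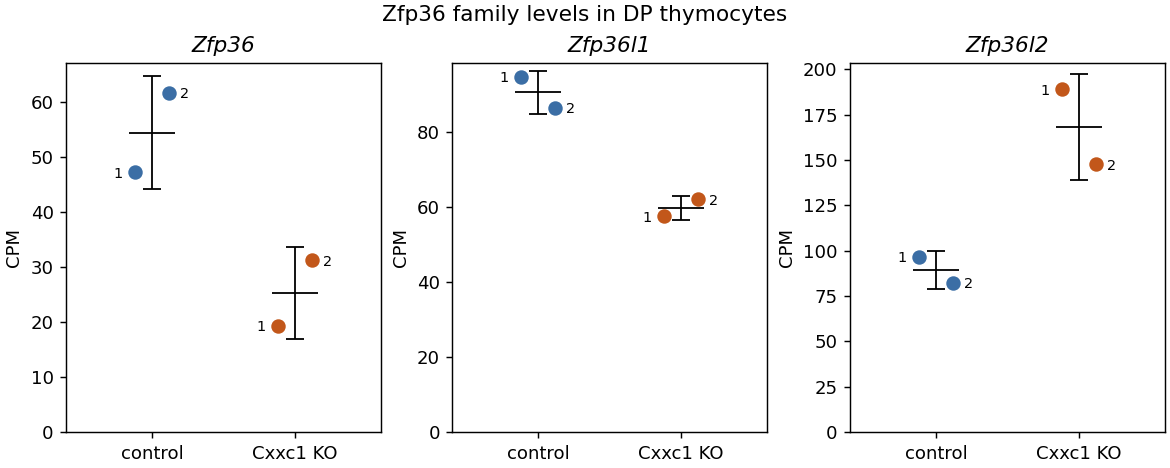
Levels of Zfp36, Zfp36l1 and Zfp36l2 in CPM on axes that start at 0, with 1 point per library (numbered by replicate), and the mean and SD of each genotype as a dash with bars. Zfp36 and Zfp36l1 sit lower in both KO libraries and Zfp36l2 sits higher, at 189 and 148 CPM against 96.6 and 82.1 CPM.

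**Figure D3:**
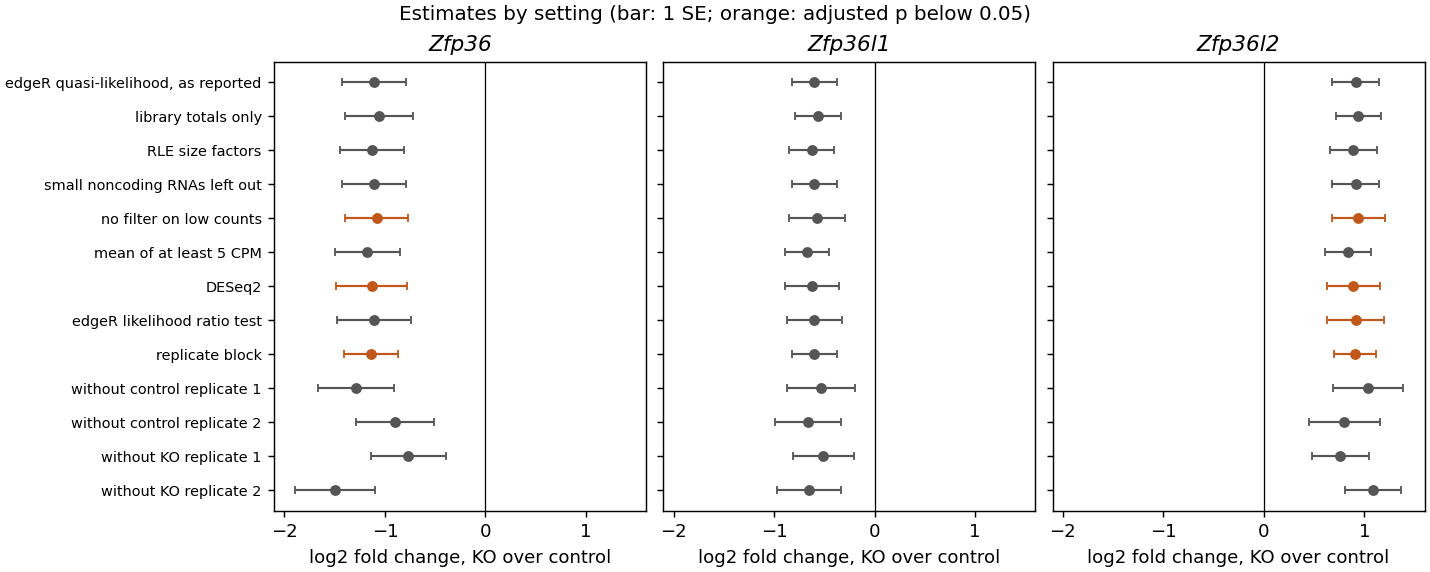
Log2 fold change of each member, KO over control, under the reported test and 12 alternatives, with bars of 1 standard error and settings with an adjusted p below 0.05 in orange. Every point for Zfp36 and Zfp36l1 is below 0 and every point for Zfp36l2 is above 0, while few settings pass the threshold.

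Summed over the 3 genes, the family held 239 and 230 CPM in controls, against 266 and 241 CPM in KO libraries. Both KO sums were above both control sums, by a log2 difference of 0.11 with a replicate SD of 0.08. The exact two-sided permutation p was 0.33, the smallest that 2 libraries against 2 allow. The make-up of the sum differed more than the sum. Zfp36l2 took 40.5% and 35.7% of the family's normalised counts in the controls and 71.1% and 61.3% in the KO libraries. The share of Zfp36l1 was 39.7% and 37.5% in controls and 21.6% and 25.7% in the KO. The share of Zfp36 was 19.8% and 26.8% in controls, and 7.27% and 13.0% in the KO. The counts of Zfp36l2 were 2.04 and 1.33 times those of Zfp36 in the controls, and 9.78 and 4.72 times in the KO libraries. On the log2 scale this ratio was 0.72 ± 0.44 in controls and 2.76 ± 0.74 in the KO (SD, n = 2 each), again with an exact permutation p of 0.33. The summed double-negative markers were also higher in the KO and the summed DP markers lower, and their part in this shift was not tested. Not every marker followed its sum. In edgeR's quasi-likelihood test, 4 of 10 tested double-negative markers rose (Il2ra, Il7r, Dtx1 and Notch3) and 0 fell. Il7r was also on a list of mature single-positive markers. Cd44 had 30.3 and 35.2 CPM in controls and 11.65 and 15.003 CPM in the KO, and DESeq2 called it lower (adjusted p = 0.0133). In the same edgeR test 3 of 12 DP markers fell (Cd4, Cd8a and Dntt) and 0 rose. Of all tested genes 0.27% rose and 0.181% fell in that test. The other DP markers included Rag2, Tcf12 and Cd1d1, with log2 fold changes of -0.13, 0.04 and 0.56.

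**Figure D4:**
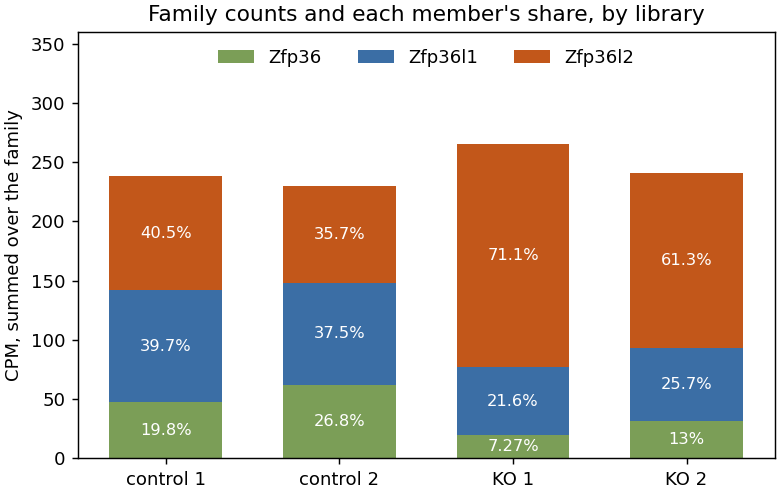
CPM of Zfp36 (green), Zfp36l1 (blue) and Zfp36l2 (orange) stacked for each of the 4 libraries, with each member's share of the sum in percent. The stacks are of similar height, from 230 to 266 CPM, and the orange part goes from 40.5% and 35.7% in controls to 71.1% and 61.3% in the KO.

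Levels of different genes can be compared only per length, and the order of the members in controls depended on the length used. With all annotated exons (3470, 2990 and 3530 bases for Zfp36, Zfp36l1 and Zfp36l2), control CPM per kilobase were 15.7 ± 2.95, 30.3 ± 1.94 and 25.3 ± 2.90 (SD, n = 2). With the coding part and 3′ UTR alone (1731, 2849 and 3274 bases), they were 31.5 ± 5.92, 31.8 ± 2.04 and 27.3 ± 3.13, closer together than the replicate spread of Zfp36. In the KO libraries the order was the same with either length. Zfp36l2 was first at 47.7 ± 8.27 or 51.4 ± 8.92, then Zfp36l1 at 19.99 ± 1.07 or 21.0 ± 1.12, then Zfp36 at 7.29 ± 2.44 or 14.6 ± 4.88 (SD, n = 2). Per length, the family sum in the KO was above that of controls with the first set of lengths, at 75.0 ± 4.76 against 71.3 ± 1.89, and below it with the second, at 87.0 ± 2.91 against 90.6 ± 0.755. No source used here names the annotation behind the deposited counts, so neither set of lengths is known to be the one that was counted. Each member is overlapped by an antisense noncoding gene in GENCODE M21, and none names the strand setting of the counting either.

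The start regions of Zfp36 and Zfp36l1, both with lower values in the KO, were compared in RefSeq's promoter table (GRCm38.p6), 250 bases before each start. Zfp36 had 18 CpG dinucleotides and 64.8% G and C, and Zfp36l1 had 10 and 48.4%, against a median of 6 CpG over 32851 windows. Zfp36 held the EGR motif GCGGGGGCG, found on either strand in 2.57% of windows, and a CArG box, the motif of serum response factor, found in 1.47%. Zfp36l1 held neither, and held the TATA motif TATAAA, found in 12.4% of windows. These shares are over all windows and were not matched for CpG number or G and C content. The motifs did not overlap each other. They are shown with the motif in capitals. Egr1, which is among the called genes here, encodes a protein that binds the first of them. Whether that protein acts on Zfp36 in these cells was not tested.
Zfp36, EGR motif (chr7:28379315-28379343, minus strand): gagctacgccGCGGGGGCGcgtcccggaa
Zfp36, CArG box (chr7:28379268-28379295, minus strand): caggccgccCCATAAAAGGagaaagctc
Zfp36l1, TATA motif (chr12:80113026-80113053, minus strand): ccaccaaatctTATAAAttgggctttgc
The EGR motif began 105 bases and the CArG box 58 bases before the RefSeq start of Zfp36. These matches describe letters in the window and do not show a site in use. GENCODE M21 places the start of Zfp36 farther upstream than RefSeq does. In that annotation the whole Zfp36 window, with its EGR motif and CArG box, lies inside the gene. The promoter of Zfp36l2 was not analysed here.

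Zfp36 is usually counted among the immediate-early genes, which respond rapidly to receptor signals. Of 18 tested genes of an immediate-early list of 20, 2 fell, 0 rose and 16 did not pass the test, where 0.181% of all tested genes fell. Point estimates were below 0 for 15 of the 18, against 52.4% of all tested genes. The list median was -1.09 on the log2 scale, against -0.04 over all tested genes. Egr1 stood at 62.3 and 92.4 CPM in controls and 4.91 and 13.7 CPM in KO libraries, a log2 fold change of -3.06 ± 0.47 (adjusted p = 0.0355, edgeR's quasi-likelihood test). Nr4a1, a nuclear receptor gene induced by T cell receptor signals, stood at 30.5 and 37.0 CPM against 4.71 and 5.03 CPM (-2.79 ± 0.35, adjusted p = 0.0177). Neither gene's genotypes overlapped. Without KO replicate 1 both calls ended, at -2.47 for Egr1 and -2.71 for Nr4a1. Scaling by library totals alone also ended the Egr1 call, at -2.997. Without control replicate 1 the list median was -0.55.

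Among the enzymes that act after the family has bound, no CCR4-NOT gene passed the test. Of 11 tested CCR4-NOT subunits 0 were called by edgeR's quasi-likelihood test, 0 had an unadjusted p below 0.05 and DESeq2 called 0, with a median log2 fold change of 0.04. Over all tested genes these shares were 0.451%, 13.9% and 4.79%. In a list of this size, 0 edgeR calls is near the overall share and does not show that the genes were unchanged. The scaffold subunit gene Cnot1 had 619 and 686 CPM in controls and 646 and 580 CPM in the KO (-0.09 ± 0.22), and Cnot2 had 454 and 678 against 486 and 589 CPM (-0.08 ± 0.26). The genotypes overlapped in both genes. Of 5 Tob and Btg genes, adaptors that also bring CCR4-NOT to messages, edgeR and DESeq2 called 0 and 0 had an unadjusted p below 0.05, with a median of -0.30. Btg2 had -0.03 ± 0.27 and Btg1 had -0.50 ± 0.30.

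Decapping and 5′ to 3′ decay genes numbered 19 tested, of which edgeR called 0, DESeq2 called 0 and 1 was lower at an unadjusted p below 0.05. Over all tested genes edgeR called 0.451%, DESeq2 called 4.79% and 6.91% were lower at that unadjusted p. The lower gene of the list was Pan3, a subunit of a poly(A) nuclease, with 531 and 661 CPM in controls and 386 and 422 CPM in the KO (-0.56 ± 0.23, adjusted p = 0.328 in edgeR's test). The decapping activator Ddx6 had 353 and 365 against 366 and 390 CPM (0.07 ± 0.22). All 12 exosome genes, which encode the 3′ to 5′ decay machine, had point estimates above 0, as did 47.6% of all tested genes, with a median of 0.36 against -0.04 over all tested genes. In that list edgeR called 0, DESeq2 called 0 and 1 was higher at an unadjusted p below 0.05, where 6.97% of all tested genes were. The genotypes overlapped in 8 of the 12, against 53.2% of all tested genes. That 1 gene was Exosc7, a subunit gene named here with its values known, which had 14.04 and 16.3 CPM in controls and 36.1 and 23.1 CPM in the KO (0.96 ± 0.34, adjusted p = 0.266). Exosc10 and the nuclease gene Dis3 had 0.15 ± 0.23 and 0.48 ± 0.31. The exosome median was 0.11 without KO replicate 1.

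Other RNA-binding proteins that compete with the family or act beside it, such as HuR (Elavl1), AUF1 (Hnrnpd), the roquins and the regnases, had a median of -0.02 over 17 tested genes. The tests of edgeR and DESeq2 called 0 of them, where they called 0.451% and 4.79% of all tested genes. At an unadjusted p below 0.05, 1 was higher, as were 6.97% of all tested genes. Hnrnpab had 0.13 ± 0.27 and Pum2 had -0.21 ± 0.23. Kinases, 14-3-3 proteins and phosphatase subunits that control the activity of the family proteins had a median of -0.05 over 19 tested genes of 20. Here edgeR called 0 and DESeq2 called 1, lower (2.58% of all tested genes). At an unadjusted p below 0.05, 1 gene was higher and 1 lower (6.97% and 6.91% of all tested genes). The lower one was Mapk11, the p38 beta kinase gene (chosen after its values were seen), at 6.31 and 8.05 CPM in controls and 1.12 and 0.843 CPM in the KO (-2.87 ± 0.66, adjusted p = 0.108 in edgeR's test). Mapk14, the p38 alpha gene, likewise chosen, had 121 and 96.1 against 103 and 96.1 CPM. The gene that was higher at an unadjusted p below 0.05 was Ywhaq, a 14-3-3 gene, likewise chosen. It had 52.3 and 46.0 CPM in controls and 99.96 and 72.3 CPM in the KO (0.81 ± 0.25, adjusted p = 0.213 in edgeR's test). The 14-3-3 genes Ywhaz and Ywhae had -0.11 ± 0.27 and 0.13 ± 0.24.

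Notch and cell-cycle transcripts, the messages that the family is known for limiting in lymphocytes or that were listed with them, included 2 that rose. Of 9 tested, 2 rose, 0 fell and 7 did not pass the test, where 0.27% of all tested genes rose. The list median was 0.93, with a replicate SD of 1.01, and estimates ran from -1.41 to 3.16. The median was the value of Cdkn1a (0.93 ± 0.91), whose genotypes overlapped. Myc, which encodes a transcription factor that drives growth, rose from 21.9 and 13.0 CPM to 201 and 109 CPM (3.16 ± 0.38, adjusted p = 0.0156 in edgeR's quasi-likelihood test). Cdk6, a kinase gene of the G1 phase, rose from 115 and 106 CPM to 639 and 375 CPM (2.204 ± 0.29, adjusted p = 0.0212). In both genes the lower KO library was well above the higher control. The other members are named after their values were seen. Notch1 had 653 and 387 CPM in controls and 2313 and 1084 CPM in the KO (1.71 ± 0.39, adjusted p = 0.107). Ccnd2 had 7.23 and 2.05 against 33 and 15.4 CPM (2.43 ± 0.63, adjusted p = 0.141). The cyclin gene Ccnd3 had values in the opposite direction, at 710.3 and 513 CPM in controls and 224 and 237 CPM in the KO (-1.41 ± 0.25, adjusted p = 0.052). E2f2 had 407 and 241 CPM in controls and 173 and 124 CPM (-1.12 ± 0.30, adjusted p = 0.158).

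DESeq2 called 4 genes of this list higher and 2 lower, where it called 2.21% of all tested genes higher and 2.58% lower. Without KO replicate 1 edgeR called 0 of the 9, the median was -0.11, and Myc and Cdk6 had 2.69 and 1.81, each with an adjusted p of 0.0653. Without control replicate 1 the median was 2.13 and 5 genes were called higher, where 1.81% of all tested genes were. With 1 control left, that library is assumed to vary as the KO libraries do. In the 3′ UTR, Notch1 had 4 heptamers in 1628 bases and Cdk6 had 2 in 10217 bases, while Myc and Ccnd2 had 0 in 442 and 5173 bases. Of UTRs of similar length, 0.764% had at least as many as Notch1 and 79.2% at least as many as Cdk6. Among the genes with lower values, Ccnd3 had 0 and E2f2 had 1.

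Classical AU-rich messages are mostly those for cytokines and early-response proteins. The filter on low counts passed 20389 of all 35976 symbols, and 9 of the 17 listed here. Of these edgeR's quasi-likelihood test called 0, DESeq2 called 1 lower (2.58% of all tested genes), and 3 were lower and 0 higher at an unadjusted p below 0.05 (6.91% and 6.97% of all tested genes). The point estimate was below 0 in all 9, against 52.4% of all tested genes, with a median of -1.19. Some of these estimates rested on few reads. Tnf had 45 and 8 reads in controls and 58 and 12 in the KO (-0.98 ± 1.44). Il10 had 16 and 0 against 0 and 19 (-1.28 ± 2.58), and Fos had 10 and 63 against 24 and 0 (-1.95 ± 1.89). Fos and Dusp1 were also on the immediate-early list. Pim1, a kinase gene, had 49.5 and 34.4 CPM in controls and 37.6 and 28.2 CPM in the KO (-0.35 ± 0.30), and Nfkbiz had 33.3 and 37.6 against 26.3 and 33.7 CPM (-0.24 ± 0.28). The gene that DESeq2 called was Lif, a cytokine gene, at 3.28 and 2.34 CPM in controls and 0 and 0.0562 CPM in the KO (adjusted p = 0.00232 in DESeq2, 0.129 in edgeR's test). The other genes with an unadjusted p below 0.05 were Bcl2 and Dusp1, and all 3 are named after their values were seen. Dusp1, a phosphatase gene, had 13.9 and 9.40 against 6.17 and 3.48 CPM (-1.26 ± 0.49, adjusted p = 0.305). The survival gene Bcl2 had 20.3 and 25.96 against 12.8 and 7.59 CPM (-1.19 ± 0.39, adjusted p = 0.227 in edgeR's test and 0.0868 in DESeq2). The median was -0.44 without control replicate 1.

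**Figure D5:**
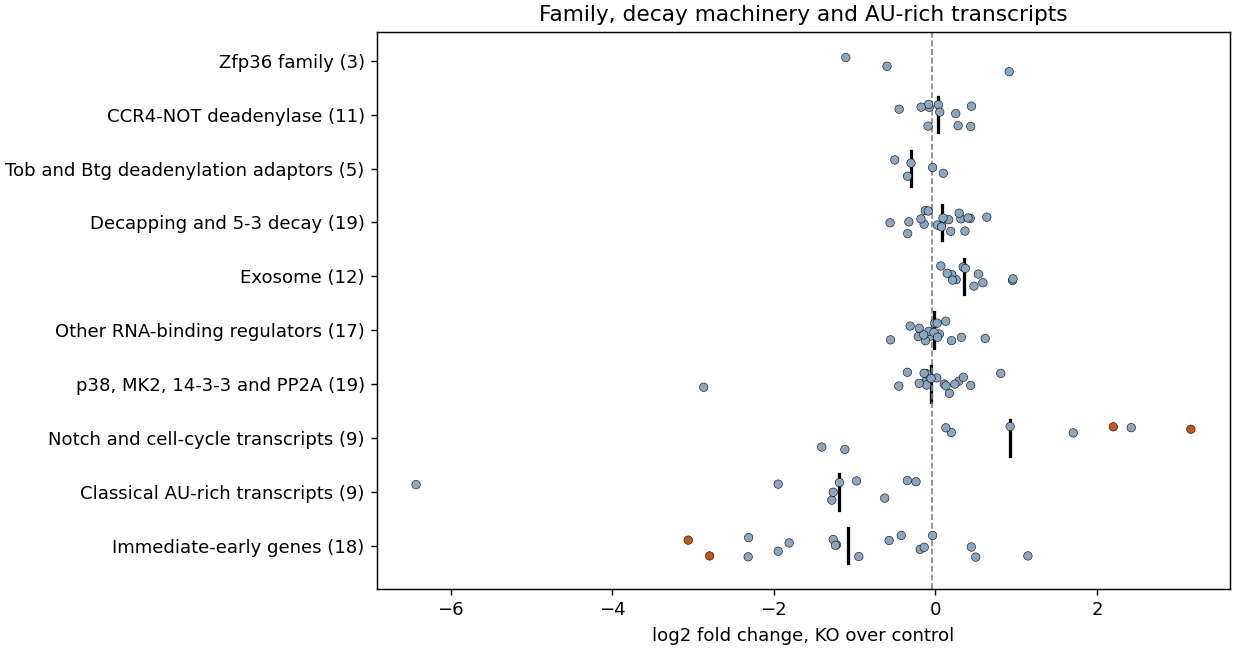
Log2 fold change, KO over control, of each tested gene in the family and in 9 lists of related genes (number tested in brackets), with called genes in orange, list medians as black bars and the median of all tested genes as a dashed line. CCR4-NOT and decapping genes have medians of 0.04 and 0.08. The Notch and cell-cycle list has a median of 0.93 with a replicate SD of 1.01, and the immediate-early list has -1.09 with a replicate SD of 0.21.

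The genes whose profile over the 4 libraries was closest to each member were found by the distance between mean-centred log2 CPM values, among 8551 named genes of at least 10 CPM. Closest to Zfp36 was Satb1, the chromatin organiser of DP thymocytes, at a distance of 0.09 log2 units and with 3620 and 4604 CPM in controls and 1535 and 2280 CPM in the KO. Slc9a9, Slc37a2, Arntl and Camk1d followed, at 0.10 to 0.13. Closest to Zfp36l1 were Ip6k2, Wasf2, Rnpepl1, Foxj2 and Pou5f2, at 0.05 to 0.06. Closest to Zfp36l2 was Cxxc5, which encodes another CXXC zinc finger protein, at 0.06 and with 55.1 and 47.3 CPM in controls and 107 and 88.0 CPM in the KO. Nhp2l1, Ndufaf4, Bend3 and Dock6 followed, at 0.07 to 0.09. With 4 libraries, many genes share any given profile, so these distances are a description only.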

How the data were processed

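Per the labels' protocols, TRIzol-extracted RNA (10 ng) was made into libraries with a SMART-seq kit. Each library has 1 file deposited by the authors, with raw whole-number counts for every gene symbol. Per the file headers reads were aligned with HISAT2, and the submitters' processing notes list mm10, edgeR 3.36.0, featureCounts 2.0.8, HISAT2 2.2.1 and cutadapt 4.0. No source used here gives the annotation, the strand setting or how multi-mapping reads were treated. No molecular identifiers are described, so counts are reads.

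Groups came from the sample titles. The differential test used edgeR 4.0.16 under R 4.3.3: filterByExpr (minimum count 10, minimum total 15), TMM scaling, and the quasi-likelihood test with genotype as the only term, two-sided and adjusted by Benjamini and Hochberg's method over all 20389 genes. CPM use TMM-scaled library sizes, and log2 CPM a prior count of 2. A floor of 3 counts equals 0.0843 to 0.252 CPM, for counting error only. Residual degrees of freedom were 2. Checked on simulated data, the test missed most 2-fold changes, so not passing it does not show that a gene was unchanged. Alternatives were other scalings, filters, DESeq2 1.42.0, the likelihood ratio test, a replicate block, and leaving out each library with the tested genes kept.

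The members and gene lists were chosen with earlier results of these data known. Lists are described by counts and medians, without set tests. Genes were named by rule: all members, up to 3 called genes per list with the smallest p or else the 2 with the highest CPM, and the 5 genes closest to each member. Others (Exosc7, Mapk11, Mapk14, Ywhaq, Lif, Dusp1, Bcl2, Tnf, Il10, Fos, Notch1, Ccnd2, Ccnd3, E2f2, Cdkn1a and the marker genes) were named after their values were seen. Sequences came from GENCODE M21 transcripts and RefSeq promoters (GRCm38.p6).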

Additional observations from a re-analysis of the deposited data

How the results depend on the processing

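All 12 alternatives kept the direction of each member. Zfp36 passed the threshold, which it missed in the reported test, with no filter on low counts (-1.08), DESeq2 (-1.13) and the replicate block (-1.13). Zfp36l2 did so with no filter (0.94), DESeq2 (0.89), the likelihood ratio test (0.91) and the replicate block (0.91). Leaving out 1 library gave -1.50 to -0.77 for Zfp36, -0.66 to -0.51 for Zfp36l1 and 0.76 to 1.08 for Zfp36l2. Same-numbered libraries did not deviate together (r = -0.01 across genes), so the numbers are not known to pair samples. The block leaves 1 residual degree of freedom.

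The count of called genes was 92 and became 920 with no filter, 233 at a mean of at least 5 CPM, 977 with DESeq2, 997 with the likelihood ratio test and 1599 with the replicate block, and 9 to 619 without 1 library. It was 9 without KO replicate 1, 555 without control replicate 1 and 619 without control replicate 2. The share of calls that were higher, 59.8%, was 67.6% with library totals only and 46.2% with DESeq2. At a mean of at least 5 CPM, the median of decapping genes was 0.0035, that of other RNA-binding regulators -0.085, that of kinases, 14-3-3 proteins and phosphatases -0.13, and that of classical AU-rich messages -0.70. That last list had -0.66 with the replicate block, and immediate-early genes had -0.81 with no filter. The cause was not tested.

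Medians without 1 library ran from -0.10 to 0.23 for CCR4-NOT, 0.11 to 0.55 for the exosome, -0.068 to 0.079 for other RNA-binding regulators and -0.11 to 0.046 for kinases, 14-3-3 proteins and phosphatases. They ran from -0.11 to 2.13 for Notch and cell-cycle transcripts, -1.57 to -0.44 for classical AU-rich messages and -1.18 to -0.55 for immediate-early genes. The smallest log2 fold change called in the reported test was 1.39 in size, above that of each member.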

Other observations

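Zfp36l3, the X-linked member of the family in rodents, which is known from placenta and yolk sac, was near the detection limit. It had 11 and 18 reads in control 1 and control 2 and 0 and 4 reads in KO 1 and KO 2, and the difference did not pass the threshold (adjusted p = 0.549 in edgeR's quasi-likelihood test).

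Genes grouped by the number of AU-rich heptamers in the 3′ UTR differed little. The median log2 fold change was 0.01 for 10576 genes with 0 heptamers, -0.03 for 2499 with 1, -0.07 for 825 with 2 and -0.10 for 466 with 3 or more. Called genes were 0.463%, 0.6%, 0.606% and 0.215% of these groups. Over the same groups median UTR length went from 659 to 3246 bases, and A and T content from 53.7% to 60.1%. Among UTRs of 1000 to 3000 bases, genes with 0 heptamers had a median of -0.03 and those with 3 or more had -0.05. These groups were chosen after the data were seen and are described without a test.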
